A study of Mus musculus with 8 samples.

Results

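The genes described here are those of the mouse MHC, named H2 in this species, and of the machinery that prepares peptides for MHC molecules. They were chosen by name and without a cut on any measured value, although earlier results of these data were known. The rule took every gene of the table whose name begins with H2-, 37 in all. It also took 10 further genes, namely B2m, Tap1, Tap2, Tapbp, Psmb8, Psmb9, Psmb10, Nlrc5, Ciita and Cd74. This gave 47 of 36333 genes, of which 34 belong to the class I pathway and 12 to the class II pathway. The remaining gene, H2-Ke6, lies in the same chromosomal region but encodes a hydroxysteroid dehydrogenase, so it was counted in neither class.

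RNA came from the ventral prostate of 4 hSKP2-KI and 4 wild type (WT) mice, all males at 12 months of age and with no treatment named, 1 library per mouse. The strain named is FVB/N: in the paper, males came from heterozygous females bred to wild type FVB/N males. The background of the founders is not stated there, and the H2 haplotype of each mouse was not tested. In hSKP2-KI mice the coding sequence of human SKP2, preceded by a P2A peptide, was placed in exon 1 of the endogenous probasin gene, so that it is driven by the mouse probasin promoter, which is active in prostate epithelium. SKP2 is the substrate-binding subunit of an SCF ubiquitin ligase that targets the cell cycle inhibitor p27. Several founder lines were made, and the line of each sequenced mouse is not given in the sources used here. WT mice carried no such insertion. Expression is in TPM, the abundance of transcripts per transcript length, scaled so that each library sums to 1000000.

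MHC class I molecules are present on nearly all nucleated cells and show peptides from proteins made inside the cell to CD8 T cells. A heavy chain pairs with beta-2 microglobulin, the proteasome cuts the peptides, TAP carries them into the endoplasmic reticulum, and tapasin loads them. MHC class II molecules belong mainly to dendritic cells, macrophages and B cells, take peptides from engulfed material, and show them to CD4 T cells; an invariant chain guards their groove until H2-DM exchanges it for peptide. NLRC5 and CIITA are the transactivators of class I and class II genes, and interferon gamma raises both sets.

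The labels held in these data: the Skp2 row averaged 48.1 ± 10.1 TPM in hSKP2-KI and 1.75 ± 0.528 TPM in WT mice (SD, n = 4), while Pbsn, the gene that received the insertion, averaged 115 ± 39.6 and 5984 ± 2447 TPM. Markers of ventral prostate secretion summed to 252054 to 288939 TPM in hSKP2-KI and 324981 to 377152 TPM in WT mice, whereas seminal vesicle markers summed to at most 0.656 TPM. Of the 4 markers of ventral prostate secretion, 2 were lower and 1 higher in hSKP2-KI mice without overlap. TPM has a fixed total, so a smaller share of the most abundant genes raises the TPM of the rest. Over the 13080 genes tested, the median log2 fold change was 0.23 in TPM as deposited and -0.02 after median-ratio scaling, which sets the typical gene of each mouse to the same level, and both versions are therefore given for each class. In bulk tissue, fewer cells of a type and less RNA per cell cannot be told apart. FVB/N and the C57BL/6J reference differ in their H2 haplotype, and how many reads of diverged alleles were lost in mapping was not tested.

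Upstream sequences are printed for the light chain, a classical heavy chain, neighbouring T region genes, the Psmb9 and Tap1 pair and a class II chain, as examples whose values are given below. They are RefSeq sequences of build GRCm38.p6, given 5′ to 3′ on the strand of the gene. Capitals mark matches, on either strand, to CCAAT (the box bound by NF-Y), TGACG (the core bound by CREB family factors) and the interferon-stimulated response element (searched as 2 copies of GAAA with any 2 bases between them, and bound by interferon regulatory factors). Where matches overlapped, their joint run is in capitals. Psmb9 and Tap1 stand head to head on chromosome 17 and share 1 stretch of 225 bases between their starts, at chr17:34187331-34187555, shown on the strand of Tap1 with the start of Psmb9 to the left. The other windows are the 250 bases before the start, or 203 bases for H2-T-ps, whose nearest 47 bases lie inside its own annotated span. They are B2m at chr2:122147437-122147686, H2-D1 at chr17:35262844-35263093, H2-T23 at chr17:36032702-36032951, H2-T-ps at chr17:36111724-36111926, H2-T22 at chr17:36042743-36042992 and, for class II, H2-Aa at chr17:34287824-34288073.
Psmb9 to Tap1: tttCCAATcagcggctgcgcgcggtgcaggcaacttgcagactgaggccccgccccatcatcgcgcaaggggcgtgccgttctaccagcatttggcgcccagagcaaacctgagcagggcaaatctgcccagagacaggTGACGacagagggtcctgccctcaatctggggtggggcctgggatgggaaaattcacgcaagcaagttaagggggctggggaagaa
B2m: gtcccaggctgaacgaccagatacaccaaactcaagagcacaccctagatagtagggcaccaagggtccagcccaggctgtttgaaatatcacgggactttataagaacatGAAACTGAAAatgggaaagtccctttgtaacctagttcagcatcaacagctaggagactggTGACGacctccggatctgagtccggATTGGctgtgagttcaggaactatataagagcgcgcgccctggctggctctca
H2-D1: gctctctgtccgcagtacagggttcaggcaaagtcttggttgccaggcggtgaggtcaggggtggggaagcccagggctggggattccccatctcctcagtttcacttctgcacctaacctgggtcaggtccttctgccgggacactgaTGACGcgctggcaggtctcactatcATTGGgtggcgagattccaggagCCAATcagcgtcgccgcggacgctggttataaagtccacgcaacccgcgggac
H2-T23: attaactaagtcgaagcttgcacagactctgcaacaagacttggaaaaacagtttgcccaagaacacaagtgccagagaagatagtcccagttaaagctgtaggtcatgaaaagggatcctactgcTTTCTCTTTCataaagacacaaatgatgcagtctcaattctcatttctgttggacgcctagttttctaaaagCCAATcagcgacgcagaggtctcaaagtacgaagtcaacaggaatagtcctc
H2-T-ps: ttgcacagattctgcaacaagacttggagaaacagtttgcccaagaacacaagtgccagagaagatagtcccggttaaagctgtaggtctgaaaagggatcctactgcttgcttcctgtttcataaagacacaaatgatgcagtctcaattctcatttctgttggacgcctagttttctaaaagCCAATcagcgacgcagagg
H2-T22: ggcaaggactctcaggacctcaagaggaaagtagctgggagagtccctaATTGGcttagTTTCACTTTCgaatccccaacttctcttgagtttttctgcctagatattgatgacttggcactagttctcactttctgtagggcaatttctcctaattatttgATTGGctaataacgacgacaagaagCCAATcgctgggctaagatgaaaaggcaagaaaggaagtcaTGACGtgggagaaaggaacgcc
H2-Aa: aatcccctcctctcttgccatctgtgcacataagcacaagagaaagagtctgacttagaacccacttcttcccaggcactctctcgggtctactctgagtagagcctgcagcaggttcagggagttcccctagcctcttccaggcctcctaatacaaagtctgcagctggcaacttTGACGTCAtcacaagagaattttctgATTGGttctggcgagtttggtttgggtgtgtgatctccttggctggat

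Among the 21 tested class I and class II genes with a window in the RefSeq table, 18 (85.7%) held CCAAT and 10 (47.6%) held TGACG, against 33.8% and 17.8% of all 32851 windows of the same length. Related genes have similar windows, so these are not independent. The matches in the stretch shared by Psmb9 and Tap1 are counted for both genes. The searched form of the interferon-stimulated response element was found in 3 of the 21, in B2m, H2-T23 and H2-T22, and in 2.98% of all windows. Other forms of the element were not searched, so a window without a match may still hold one. A shorter run such as tttcacttc, present in the H2-D1 window, was not counted. For alignment the full 250 bases of each window were used, including the 47 bases of H2-T-ps inside its annotated span that are not printed. The windows of H2-T23 and H2-T-ps were the most alike of the 10 pairs aligned, with 225 identical bases in 268 alignment columns (84%), followed by H2-D1 and H2-Q4 with 76.3%. The interferon element of H2-T23 had no match in the aligned window of H2-T-ps, while both held CCAAT. H2-T23 and H2-T22 had 48.1% identical bases, within the 46.4 to 51.5% of the remaining pairs. A match is a run of letters in the reference window and not a measured binding site.

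Most of the class I genes that could be tested had a higher TPM in hSKP2-KI than in WT ventral prostates, and few remained called after median-ratio scaling. Of the 34 class I genes, 20 reached 1 TPM in at least 4 of 8 mice and could be tested, 14 of these passed the test as higher and 0 as lower, against 32.7% of all genes tested called higher and 33.9% called in either direction (limma on log2(TPM + 1), adjusted p under 0.05 over all genes). In TPM, 14 had every hSKP2-KI mouse above every WT mouse, which held for 34% of all genes. After median-ratio scaling 4 remained called higher, H2-T-ps, H2-T24, H2-T23 and Psmb8, against a background of 6.64% (11.4% in either direction), and 5 had no overlap, against 9.68%. Across the tested class I genes the median change was 0.46 on the log2 scale beside 0.23 for all genes, or 0.18 beside -0.02 after scaling. By both readings the typical class I gene was about 0.2 above the typical gene, and 17 of 20 lay above the median of all genes in TPM as deposited.

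**Figure D1:**
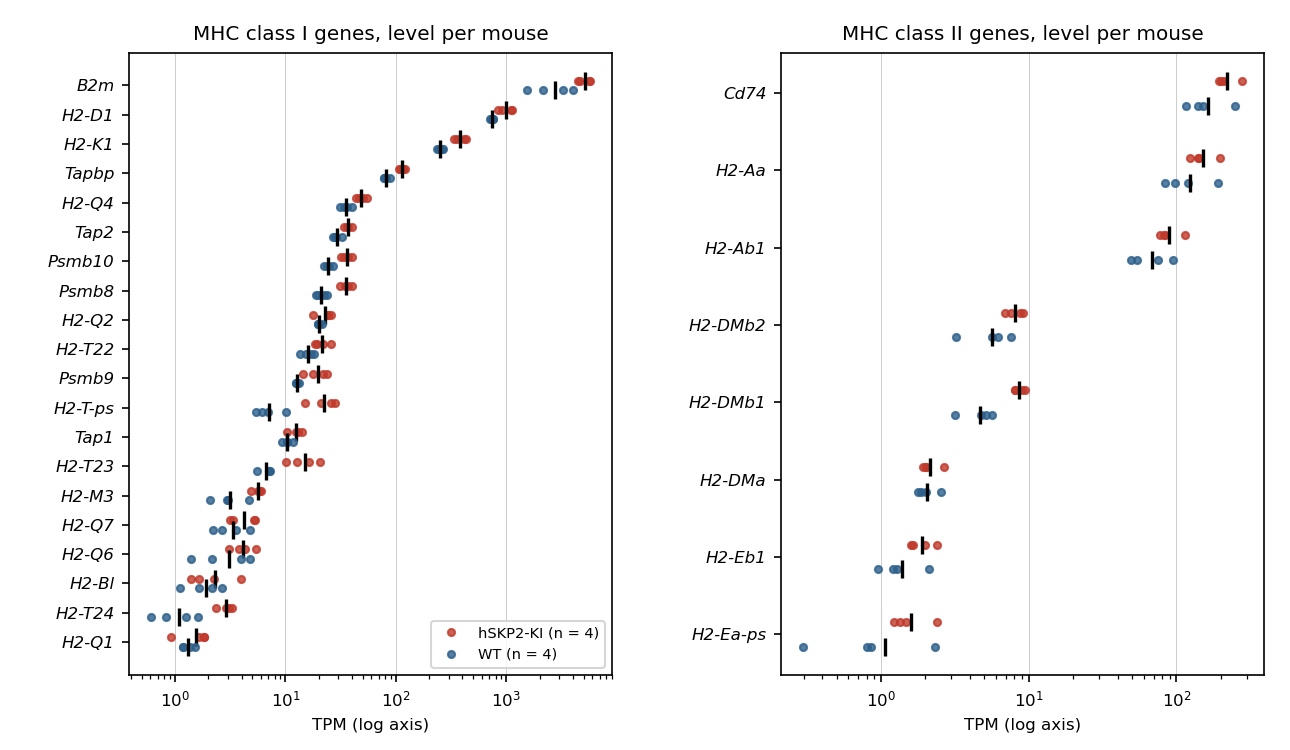
Level of each tested class I gene (left) and class II gene (right) in each mouse, in TPM on a log axis, ordered by mean level; red points are the 4 hSKP2-KI mice, blue points the 4 WT mice, and black ticks the group means. In class I the red and blue points were separate for 14 of 20 genes, and in class II for 1 of 8, H2-DMb1.

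B2m, the light chain shared by class I molecules, was by far the most abundant of these mRNAs. It measured 4413, 4675, 5623 and 5722 TPM in hSKP2-KI mice 1 to 4 and 3237, 3995, 2159 and 1545 TPM in WT mice 1 to 4. All hSKP2-KI mice were above all WT mice, but the WT mice spread over more than a doubling, with WT mice 3 and 4 the lowest. The mean was 5108 ± 662 against 2734 ± 1094 TPM (SD, n = 4), a log2 fold change of 0.99 ± 0.25 (SE, limma adjusted p = 0.0149). After median-ratio scaling the groups still did not overlap, yet the change of 0.70 did not pass (adjusted p = 0.123).

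The classical heavy chains H2-K1 and H2-D1, which present peptides to most CD8 T cells, made up 89.7 to 91.4% of all heavy chain TPM in each of the 8 mice, so their share hardly differed with genotype. H2-K1 measured 430, 414, 332 and 355 TPM in hSKP2-KI mice and 266, 263, 237 and 244 TPM in WT mice. H2-D1 measured 1091, 1134, 847 and 907 TPM in hSKP2-KI mice and 705, 755, 760 and 729 TPM in WT mice. In both genes hSKP2-KI mice 1 and 2 were the highest, mice 3 and 4 lay between them and WT, and no hSKP2-KI mouse reached down to WT. The log2 fold changes were 0.59 ± 0.09 for H2-K1 (limma adjusted p = 0.00236) and 0.42 ± 0.10 for H2-D1 (adjusted p = 0.0122). Neither passed after median-ratio scaling (0.31, adjusted p = 0.11, and 0.14, adjusted p = 0.489), although H2-K1 passed under 2 other scalings, quantile normalization (adjusted p = 0.0343) and TPM without the 20 most abundant genes (adjusted p = 0.0302).

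Set against its light chain within the same mouse, the heavy chain did not follow B2m closely. The log2 ratio of H2-D1 to B2m was -2.01, -2.04, -2.73 and -2.66 in hSKP2-KI mice and -2.20, -2.40, -1.50 and -1.08 in WT mice. The WT mice thus held both the lowest B2m and the highest heavy chain per B2m, in mice 3 and 4. The difference between genotypes was -0.56 for H2-D1 (exact permutation test, two-sided, p = 0.171) and -0.40 for H2-K1 (exact p = 0.286), and both ratios overlapped between groups.

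Of the 5 tested class I genes of the T region, non-classical heavy chains with restricted or specialised roles, H2-T-ps, H2-T23 and H2-T24 had fold changes among the 4 highest of class I, with B2m. They lie along the same stretch of chromosome 17. H2-T-ps, annotated as a pseudogene by GENCODE and as protein-coding by RefSeq (chr17:36109030-36111723), measured 25.9, 21, 15.1 and 27.9 TPM in hSKP2-KI mice and 7.02, 10.2, 5.36 and 6.08 TPM in WT mice. H2-T23, which encodes Qa-1, the ligand of the inhibitory receptor NKG2A on natural killer and T cells (chr17:36029977-36032701), measured 20.4, 16.3, 10.2 and 12.7 TPM in hSKP2-KI mice and 7.05, 7.32, 7.05 and 5.5 TPM in WT mice. H2-T24 (chr17:36003471-36020800) was low, at 3.27, 2.9, 2.37 and 3.09 TPM in hSKP2-KI mice and 0.606, 1.6, 1.27 and 0.836 TPM in WT mice. In all 3 genes the lowest hSKP2-KI mouse, mouse 3, was above the highest WT mouse.

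The log2 fold change was 1.52 ± 0.21 for H2-T-ps (limma adjusted p = 0.00123), 1.01 ± 0.18 for H2-T23 (adjusted p = 0.00378) and 0.93 ± 0.16 for H2-T24 (adjusted p = 0.00363). After median-ratio scaling they were 1.26 (adjusted p = 0.00664), 0.75 (adjusted p = 0.0365) and 0.76 (adjusted p = 0.0157). H2-T-ps and H2-T24 passed whichever of the 8 mice was left out, under both scalings. H2-T23 did so in TPM as deposited, but after median-ratio scaling it passed in 1 of 8, without hSKP2-KI mouse 3. H2-T22, their neighbour and a ligand of some gamma-delta T cells, measured 22, 25.9, 19.2 and 18.4 TPM in hSKP2-KI mice and 13.6, 18.3, 15.3 and 17 TPM in WT mice. Its groups were separated by little, and its change of 0.39 (adjusted p = 0.0341) fell to 0.12 after scaling and passed in 4 of 8 fits with 1 mouse left out. H2-Bl, which lies between H2-T22 and H2-T-ps, was at 1.4 to 3.98 TPM in hSKP2-KI and 1.11 to 2.68 TPM in WT mice and did not pass.

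H2-T-ps and H2-T23 are related in sequence, as the upstream windows above show, so reads shared between class I genes bear on their values. In a single reference transcript of each gene, 0.831% of the 150-base windows of H2-T23 also occurred, base for base, in another gene. For H2-T-ps, H2-T24, H2-K1, H2-Q4 and B2m this share was 0%. Windows with mismatches were not counted, so sharing of reads between similar genes was not tested. The highest shares among tested class I genes were 9.68% for H2-Q7, 5.99% for H2-Q6 and 4.64% for H2-Q1. These shares hold for the C57BL/6J reference and not necessarily for FVB/N alleles.

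Among the Q genes, H2-Q4 rose and the others did not pass. H2-Q4, a non-classical heavy chain, measured 50.2, 55.1, 43.7 and 46 TPM in hSKP2-KI mice and 31, 40, 33.6 and 36 TPM in WT mice, with no overlap (log2 fold change 0.46, limma adjusted p = 0.00798, and 0.18, adjusted p = 0.181, after scaling). H2-Q2 measured 24.3, 25.6, 24.2 and 17.9 TPM in hSKP2-KI mice and 19.9, 19.7, 20 and 21.6 TPM in WT mice, so hSKP2-KI mouse 4 was the lowest of all 8. H2-Q1, H2-Q6 and H2-Q7 were at 0.925 to 5.37 TPM in hSKP2-KI and 1.18 to 4.81 TPM in WT mice. H2-M3, which presents formylated peptides, measured 5.88, 6.01, 5.6 and 4.9 TPM in hSKP2-KI mice and 2.07, 3, 4.64 and 2.97 TPM in WT mice. WT mouse 3 came closest to the hSKP2-KI mice, and the change of 0.69 passed in TPM as deposited (adjusted p = 0.0123) but not after scaling (0.47, adjusted p = 0.0921).

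Of the peptide loading genes, Tapbp and Tap2 rose and Tap1 did not pass. Tapbp, which encodes tapasin, measured 115, 122, 108 and 107 TPM in hSKP2-KI mice and 77.7, 89.1, 78.4 and 81.8 TPM in WT mice (log2 fold change 0.47, limma adjusted p = 0.0026). Tap2 measured 35.7, 40, 33.9 and 36.7 TPM in hSKP2-KI mice and 27, 32.4, 28.7 and 28.1 TPM in WT mice (0.32, adjusted p = 0.0166). Tap1, the other subunit of the same transporter, measured 13.1, 14, 10.3 and 12.5 TPM in hSKP2-KI mice and 10.3, 10.3, 11.6 and 9.27 TPM in WT mice, and its groups overlapped (0.24, adjusted p = 0.112). After median-ratio scaling the 3 changes were 0.18, 0.05 and -0.03, and none passed. Tap1 thus moved with the typical gene. Tapbp still passed with quantile normalization (limma adjusted p = 0.0226) and in TPM without the 20 most abundant genes (adjusted p = 0.043). Tap2 and Tap1 passed with neither.

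The 3 immunoproteasome subunits, which interferon gamma induces and which replace the constitutive catalytic subunits to alter peptide cleavage, all rose. Psmb8 measured 36.5, 39.9, 31.1 and 34.5 TPM in hSKP2-KI mice and 18.9, 19.8, 23.8 and 22.2 TPM in WT mice (log2 fold change 0.72, limma adjusted p = 0.0015). Psmb9 measured 23.8, 21.8, 14.5 and 17.9 TPM in hSKP2-KI mice and 12.6, 12.4, 13.3 and 12.5 TPM in WT mice (0.56, adjusted p = 0.0122). Psmb10 measured 40.1, 36.9, 32.1 and 34.2 TPM in hSKP2-KI mice and 27.2, 23.7, 24.7 and 22.4 TPM in WT mice (0.53, adjusted p = 0.00359). None of the 3 overlapped between groups, and hSKP2-KI mouse 3 was the lowest of its group in each. After scaling Psmb8 alone of the 3 still passed (0.44, adjusted p = 0.0242), in 3 of 8 fits with 1 mouse left out.

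In a ratio within a mouse the scaling nearly cancels (exactly so without the added 1), so each immunoproteasome subunit was set against the constitutive subunit it replaces. The log2 ratio of Psmb10 to Psmb7 was -1.92, -2.05, -2.26 and -2.10 in hSKP2-KI mice and -2.36, -2.47, -2.41 and -2.62 in WT mice. The groups did not overlap, and the difference of 0.38 had the smallest p that 4 against 4 mice allow (exact permutation test, two-sided, p = 0.0286, adjusted p = 0.229 over 8 ratios). Psmb8 to Psmb5 differed by 0.48 (exact p = 0.0571), with WT mouse 3 level with hSKP2-KI mouse 1, and Psmb9 to Psmb6 by 0.22 (exact p = 0.2). None of the 8 planned ratios passed after adjustment. With 4 against 4 mice a single ratio cannot pass it, since even the smallest p of 0.0286 became 0.229.

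Tap1 and Psmb9, on either side of the shared stretch printed above, were compared after their values had been seen. The log2 ratio of Tap1 to Psmb9 was -0.82, -0.60, -0.46 and -0.48 in hSKP2-KI mice and -0.26, -0.25, -0.18 and -0.40 in WT mice. Every hSKP2-KI mouse had less Tap1 per Psmb9 than every WT mouse, by 0.32 on average (exact permutation test, p = 0.0286), which did not pass after adjustment (adjusted p = 0.0571 over the 2 ratios added). This is the smallest p possible here, so a single ratio of the 2 could not have passed. Each of the shared matches, CCAAT 4 to 8 bases from the Psmb9 side and TGACG at bases 140 to 144, lies between both starts.

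**Figure D2:**
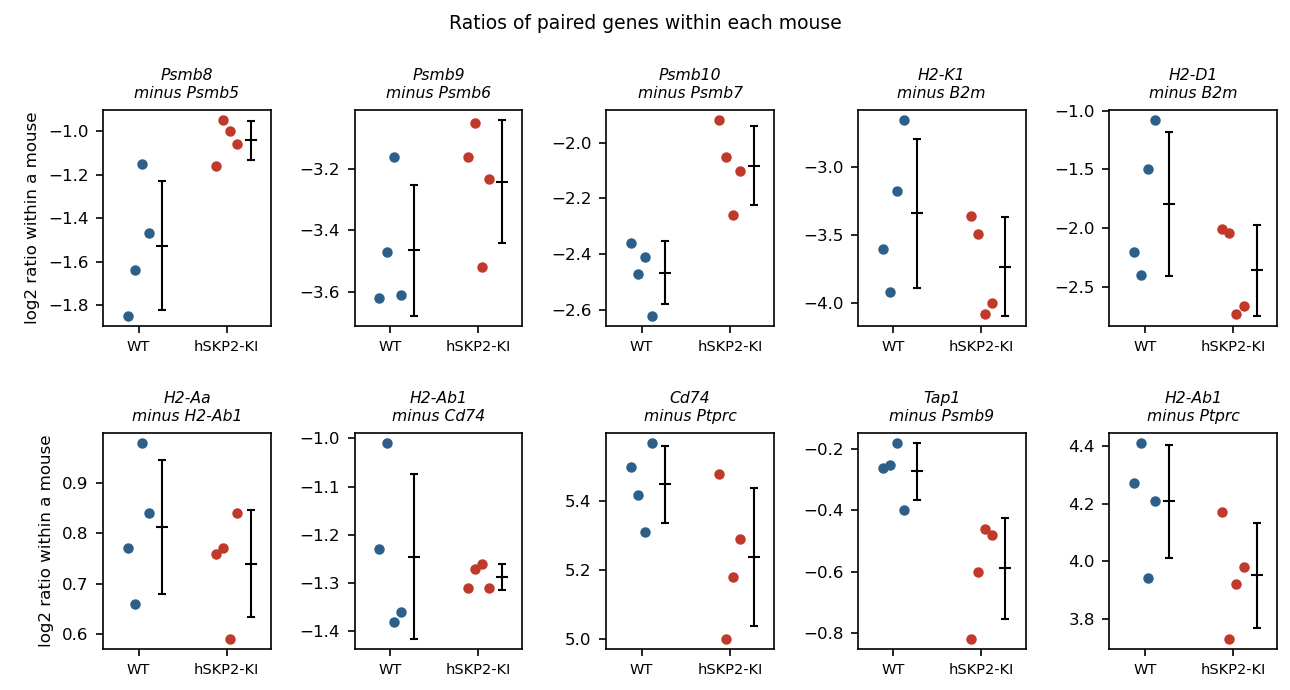
Log2 ratio of 2 genes within each mouse, computed on TPM + 1, for the 8 planned and the 2 added pairs (last 2 panels); points are mice, and bars the mean and SD of 4 mice. The groups were separate for Psmb10 minus Psmb7 and for Tap1 minus Psmb9 and overlapped in the other 8 panels.

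**Figure D3:**
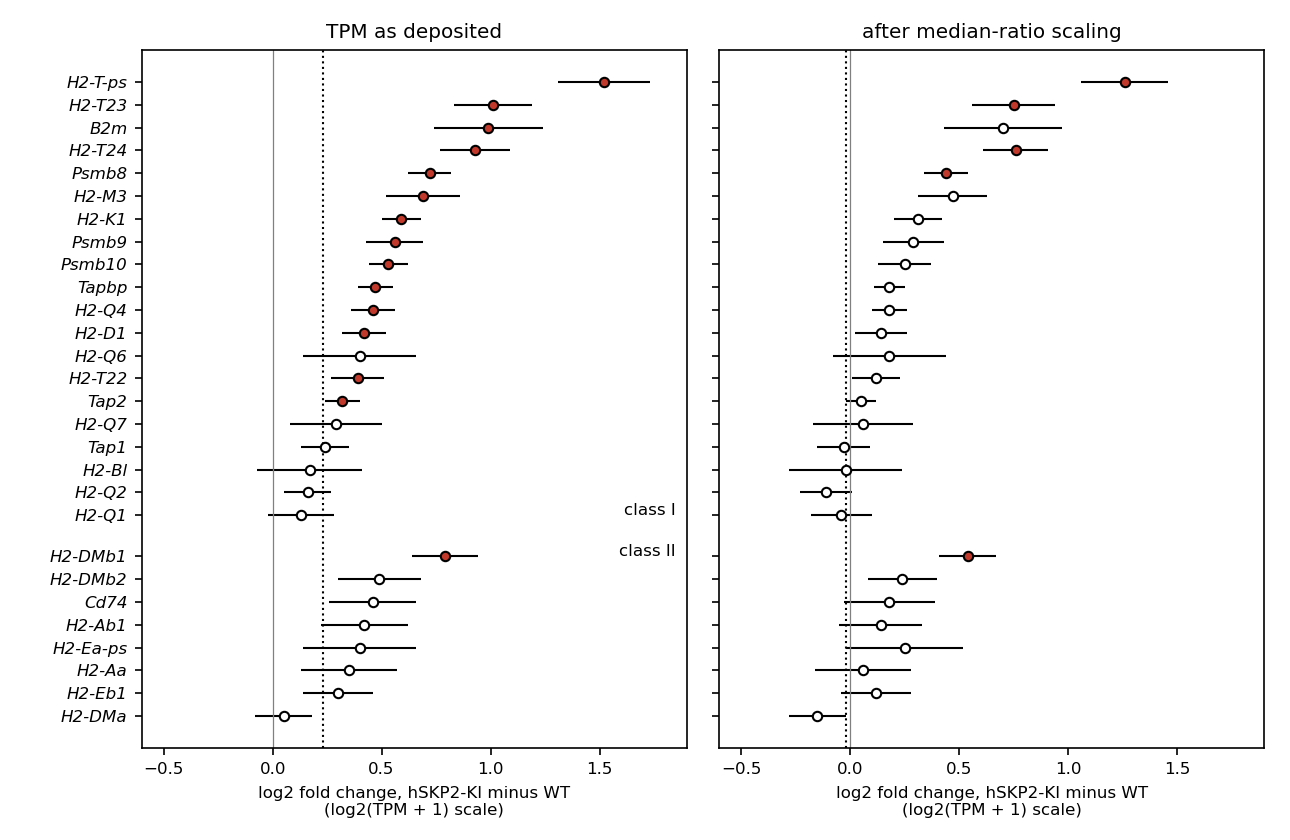
Log2 fold change with SE of each tested class I and class II gene, in TPM as deposited (left) and after median-ratio scaling (right), n = 4 mice per genotype; filled points passed the limma test and the dotted line is the median of all 13080 genes tested. Filled points fell from 15 to 5 with the scaling, and H2-T-ps stood farthest to the right in both panels.

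Nlrc5, the class I transactivator, stayed below the level needed for testing, at 0.689, 0.95, 0.846 and 0.856 TPM in hSKP2-KI mice and 0.631, 0.588, 1.23 and 0.47 TPM in WT mice, with the highest value in WT mouse 3. The other 13 untested class I genes were heavy chains at no more than 1.39 TPM in any mouse. Of these, 8 were listed at 0 in every mouse, all of the M group. H2-M9 was at 0.0866, 0.284, 0.158 and 0.649 TPM in hSKP2-KI mice and at 0, 0, 0 and 0.0838 TPM in WT mice, a level too low to test.

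In TPM as deposited, class II genes did not separate the genotypes as class I genes did. Of the 12, 8 could be tested, 1 was called higher and 0 lower in TPM as deposited, beside the 32.7% of all genes called higher, and the same single gene, H2-DMb1, was called after median-ratio scaling. After scaling 1 of the 8 had no overlap, beside 5 of 20 class I genes. The median log2 fold change of the 8 was 0.41 beside the 0.46 of class I, or 0.16 beside 0.18 after scaling. The difference between the classes was not tested.

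H2-Aa and H2-Ab1 encode the alpha and beta chains of the I-A molecule. H2-Aa measured 143, 198, 124 and 141 TPM in hSKP2-KI mice and 84.2, 119, 190 and 98.4 TPM in WT mice. H2-Ab1 measured 83.9, 115, 82.4 and 77.8 TPM in hSKP2-KI mice and 49, 75, 95.4 and 54.4 TPM in WT mice. Cd74, the invariant chain, measured 210, 279, 199 and 195 TPM in hSKP2-KI mice and 116, 152, 249 and 141 TPM in WT mice. In all 3 genes WT mouse 3 lay among the hSKP2-KI mice, the other WT mice lay below every hSKP2-KI mouse, and hSKP2-KI mouse 2 was the highest of all 8.

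The log2 fold changes were 0.35 for H2-Aa (limma adjusted p = 0.22), 0.42 for H2-Ab1 (adjusted p = 0.11) and 0.46 for Cd74 (adjusted p = 0.0935). Without WT mouse 3, 5 class II genes were called higher in TPM as deposited, H2-DMb1, H2-Aa, H2-Ab1, H2-Ea-ps and Cd74, and 1 after median-ratio scaling. The 3 abundant genes kept their proportions: H2-Aa was 1.51 to 1.81 times H2-Ab1 in hSKP2-KI and 1.58 to 1.99 times in WT mice, and H2-Ab1 was 0.399 to 0.414 of Cd74 in hSKP2-KI and 0.382 to 0.493 in WT mice (differences in log2 ratio on TPM + 1 -0.07, exact permutation p = 0.457, and -0.04, with overlapping groups).

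Marker sums of cells that carry class II matched the class II genes in some mice and not in others. The 6 B cell markers summed to 15.7, 13.3, 12.6 and 3.36 TPM in hSKP2-KI mice and 1.83, 3.17, 24.1 and 2.92 TPM in WT mice, highest in WT mouse 3. The 8 macrophage markers summed to 211, 423, 227 and 209 TPM in hSKP2-KI mice and 97.7, 134, 192 and 124 TPM in WT mice. They were highest in hSKP2-KI mouse 2, and WT mouse 3 lay below every hSKP2-KI mouse. The 7 dendritic cell markers summed to 6.49, 12.6, 7.33 and 8.54 TPM in hSKP2-KI mice and 4.19, 4.95, 5.85 and 5.96 TPM in WT mice. Of the macrophage markers 4 of 8 had every hSKP2-KI mouse above every WT mouse, of the dendritic cell markers 2 of 7, and of the B cell markers 0 of 6, beside 34% of all genes tested. After median-ratio scaling 1 macrophage marker and 0 of the other 2 lists had no overlap, beside 9.68% of all genes. No marker of these lists was at 0 in every mouse. The log2 ratio of Cd74 to Ptprc, the pan-leukocyte gene CD45, averaged 5.24 ± 0.20 in hSKP2-KI and 5.45 ± 0.11 in WT mice (SD, n = 4) on TPM + 1, a difference of -0.21 (exact permutation p = 0.114), which the added 1 makes smaller because Ptprc was only at 1.59 to 7.76 TPM. The part of these cells in the class II values was not tested.

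**Figure D4:**
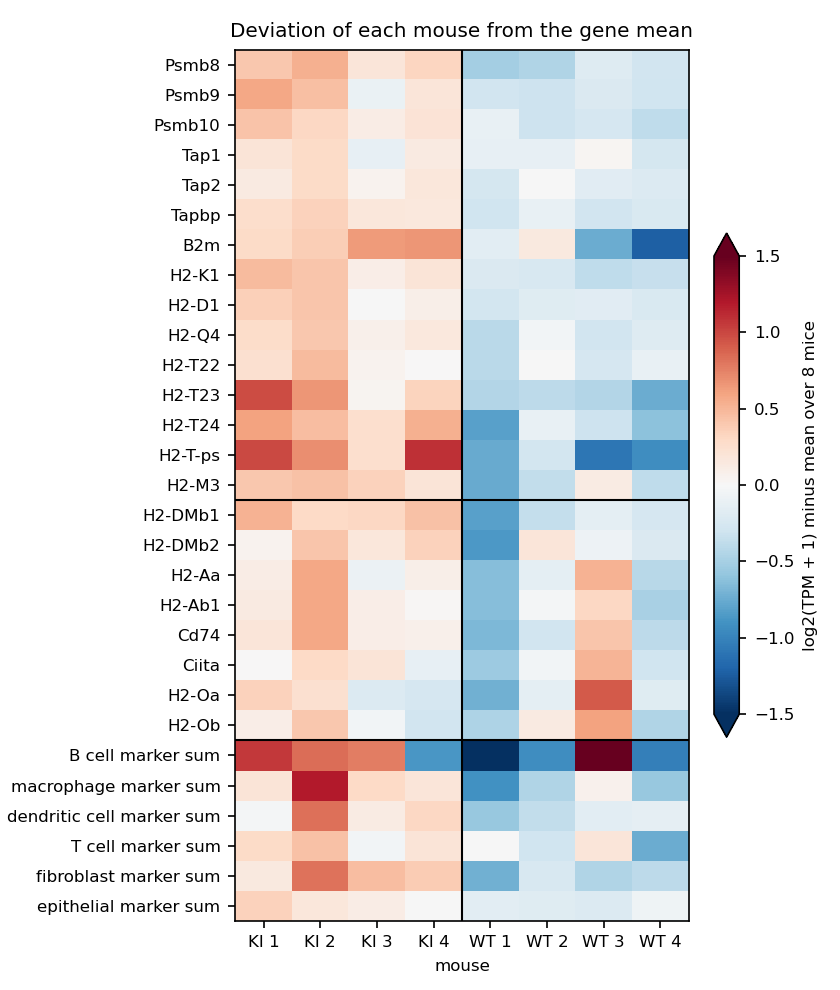
Deviation of each mouse from the mean of 8 mice, as log2(TPM + 1). The top block holds the 14 called class I genes and Tap1. The middle block holds class II genes without H2-DMa, H2-Eb1, H2-Eb2 and H2-Ea-ps, and the bottom block summed cell type markers. Red is above and blue below the mean, and the color scale ends at 1.5 in either direction. WT mouse 3 was above the mean in most class II genes shown and in B cell markers, where it reached 24.1 TPM. In most class I genes shown it was below the mean with the other WT mice. The tested but uncalled H2-Q1, H2-Q2, H2-Q6, H2-Q7 and H2-Bl are not shown. Among WT mice, mouse 3 was highest in H2-Q6 and H2-Q7 and lowest in H2-Q1 and H2-Bl.

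H2-DMa, H2-DMb1 and H2-DMb2 encode the H2-DM molecule, which exchanges the invariant chain fragment for peptide. H2-DMb1 measured 9.51, 8.04, 8.12 and 8.96 TPM in hSKP2-KI mice and 3.16, 4.75, 5.62 and 5.17 TPM in WT mice. It was the only tested class II gene with no overlap between groups, and WT mouse 3, the highest of its group, stayed well below the lowest hSKP2-KI mouse (log2 fold change 0.79 ± 0.15, limma adjusted p = 0.00417, and 0.54, adjusted p = 0.0258, after scaling, in 4 of 8 fits with 1 mouse left out). H2-DMb2 measured 6.92, 9.17, 7.57 and 8.69 TPM in hSKP2-KI mice and 3.22, 7.64, 6.23 and 5.6 TPM in WT mice (0.49, adjusted p = 0.0718). H2-DMa, the alpha chain that either beta chain needs, measured 2.01, 2.66, 1.93 and 2.01 TPM in hSKP2-KI mice and 1.86, 1.78, 2.54 and 2.03 TPM in WT mice, with nearly equal means (0.05, adjusted p = 0.783). In the reference transcripts 5.74% of the 150-base windows of H2-DMb1 and 5.4% of those of H2-DMb2 were shared in identical form, with each other.

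H2-Eb1 measured 1.6, 2.39, 2 and 1.65 TPM in hSKP2-KI mice and 0.961, 1.2, 2.11 and 1.29 TPM in WT mice, far below the I-A chains, and did not pass (0.30, limma adjusted p = 0.163). H2-Ea-ps, the E alpha gene, was at 1.22 to 2.4 TPM in hSKP2-KI and 0.297 to 2.32 TPM in WT mice (0.40, adjusted p = 0.225). Ciita, the class II transactivator, was too low to test, at 0.819, 1.22, 1.06 and 0.662 TPM in hSKP2-KI mice and 0.236, 0.763, 1.57 and 0.471 TPM in WT mice. H2-Oa and H2-Ob, whose product H2-DO restrains H2-DM chiefly in B cells, reached 2.38 and 1.81 TPM, and H2-Eb2 reached 0.221 TPM. Ciita, H2-Oa and H2-Ob all had their highest value in WT mouse 3, the mouse with the highest B cell markers. H2-Ke6, the gene of neither class, was at 54.7 to 72.5 TPM in hSKP2-KI and 49.8 to 63 TPM in WT mice, and did not pass.

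Other genes of the pathway were taken from a list of 53 present in the table, grouped by role. Of these, 46 could be tested, 28 were called higher and 1 lower in TPM as deposited, beside 32.7% and 1.23% of all genes, and 5 higher and 1 lower after median-ratio scaling, beside 6.64% and 4.76%. Their median log2 fold change was 0.37, or 0.12 after scaling.

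Class I-like proteins encoded outside the H2 complex made up 4 of the 5 called higher after scaling. Mr1, which presents vitamin B metabolites to MAIT cells, measured 9.2, 10.9, 10.1 and 11.9 TPM in hSKP2-KI mice and 3.55, 6.1, 4.69 and 6.09 TPM in WT mice (log2 fold change 0.93, limma adjusted p = 0.00257, and 0.69, adjusted p = 0.00821, after scaling). Fcgrt, the neonatal Fc receptor that recycles IgG and albumin, measured 46.3, 67.7, 40.7 and 54.8 TPM in hSKP2-KI mice and 22.8, 31.5, 30 and 28.7 TPM in WT mice (0.85 and, after scaling, 0.57, adjusted p = 0.0247). Hfe, a regulator of iron uptake, measured 7.75, 9.04, 8.67 and 8.95 TPM in hSKP2-KI mice and 4.2, 5.39, 4.64 and 6.25 TPM in WT mice (0.66 and 0.41, adjusted p = 0.0213). Mill2 measured 5.32, 5.8, 4.99 and 7.43 TPM in hSKP2-KI mice and 2.37, 4.09, 3.38 and 2.9 TPM in WT mice (0.72 and 0.49, adjusted p = 0.0351). None of the 4 overlapped between groups, beside 34% of all genes tested that were higher without overlap. They were named because they were called, so their separation is no further evidence. Pairing with B2m was the basis on which this group was listed, so it holds for Cd1d1 as well. After scaling and with 1 mouse left out, Mr1 passed in 8 of 8 fits, Fcgrt in 5, Hfe in 4 and Mill2 in 2. Cd1d1, which presents lipids and was the only other tested gene of this group, did not differ in mean (log2 fold change -0.00, adjusted p = 0.994), and Mill1 was listed at 0 in every mouse.

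Among class II processing genes all 6 tested were called higher in TPM as deposited and 0 after median-ratio scaling, beside 32.7% and 6.64% of all genes. Ctss, the cathepsin that trims the invariant chain, measured 28.4, 98.3, 31.2 and 20.6 TPM in hSKP2-KI mice and 11.4, 15.1, 22 and 15 TPM in WT mice. Ctsb measured 109, 232, 116 and 119 TPM in hSKP2-KI mice and 67.2 to 80.2 TPM in WT mice, Ctsl 125, 215, 146 and 149 against 84.8 to 140 TPM, and Lgmn 23.5, 50.6, 27.7 and 23 against 13.4 to 18.1 TPM. In all 4 proteases hSKP2-KI mouse 2, the mouse with 423 TPM of macrophage markers, stood far above the rest of its group. The log2 fold changes were 1.20, 0.85, 0.63 and 0.80, with limma adjusted p = 0.0363, 0.0111, 0.0243 and 0.0192. Without that mouse the change of Ctss was 0.73. With 1 mouse left out, Ctss and Ctsl each passed in 4 of 8 fits, Lgmn in 7 and Ctsb in 8; Ctsl did not pass without hSKP2-KI mouse 2 or without WT mouse 1, 2 or 4, Ctss without hSKP2-KI mouse 3 or those WT mice, and Lgmn without WT mouse 1.

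Of the chaperones that fold class I molecules, Pdia3, the ERp57 of the loading complex, measured 539 to 638 TPM in hSKP2-KI and 350 to 474 TPM in WT mice (log2 fold change 0.58, limma adjusted p = 0.0038). Hspa5, the BiP chaperone, measured 995 to 1364 TPM in hSKP2-KI and 728 to 1110 TPM in WT mice (0.53, adjusted p = 0.0203). Neither passed after median-ratio scaling (adjusted p = 0.079 and 0.3). Pdia3 still passed with quantile normalization (limma adjusted p = 0.0385) and in TPM without the 20 most abundant genes (adjusted p = 0.0492), and Hspa5 with neither. The other calls in TPM were Calr and Canx among these chaperones, Psme1 and Psme2 of the proteasome activator, and Psmb6 of the constitutive subunits.

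Of the 13 interferon inputs tested 7 were called higher and 1 lower in TPM, beside 32.7% and 1.23% of all genes. After median-ratio scaling 1 was called higher and 1 lower, where 6.64% of all genes were called higher and 4.76% lower. Irf2, an interferon regulatory factor that binds the same element as Irf1, measured 18.7, 16.4, 16.9 and 17.4 TPM in hSKP2-KI mice and 29, 28.3, 33.4 and 38.1 TPM in WT mice. It was the only gene of the list called lower and fell by 0.85 on the log2 scale (limma adjusted p = 0.000731), and by 1.12 after scaling (adjusted p = 0.000471). Irf1 measured 17.5 to 21.6 TPM in hSKP2-KI and 14.6 to 16.1 TPM in WT mice (0.34, adjusted p = 0.0155, and 0.07, adjusted p = 0.603, after scaling). Ifngr1, the ligand-binding receptor chain for interferon gamma, measured 37.3, 48.9, 40.1 and 42.7 TPM in hSKP2-KI mice and 24.9, 32.4, 26.3 and 28.4 TPM in WT mice (0.58, adjusted p = 0.00413, and 0.30, adjusted p = 0.0422, after scaling, in 1 of 8 fits with 1 mouse left out). Ifng itself was listed at 0 in 7 of 8 mice and at 0.0737 TPM in hSKP2-KI mouse 1, while T cell markers summed to 5.15 to 7.58 TPM in hSKP2-KI and 2.78 to 6.18 TPM in WT mice.

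Of the 7 factors tested that bind MHC promoters, Rfx5, a subunit of the RFX complex, and Nfya, a subunit of NF-Y, were called higher in TPM (0.42, limma adjusted p = 0.0312, and 0.41, adjusted p = 0.0482) and 0 after median-ratio scaling. Of the co-stimulatory and checkpoint ligands 2 of 6 could be tested. Cd274, which encodes PD-L1, measured 1.27, 2.01, 1.79 and 2.18 TPM in hSKP2-KI mice and 0.603, 0.75, 1.44 and 1.19 TPM in WT mice (0.51, adjusted p = 0.0406, and 0.34, adjusted p = 0.197, after scaling). Icosl, the other one tested, was called in TPM and not after scaling, and Cd80, Cd86, Cd40 and Pdcd1lg2 stayed too low to test.

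**Figure D5:**
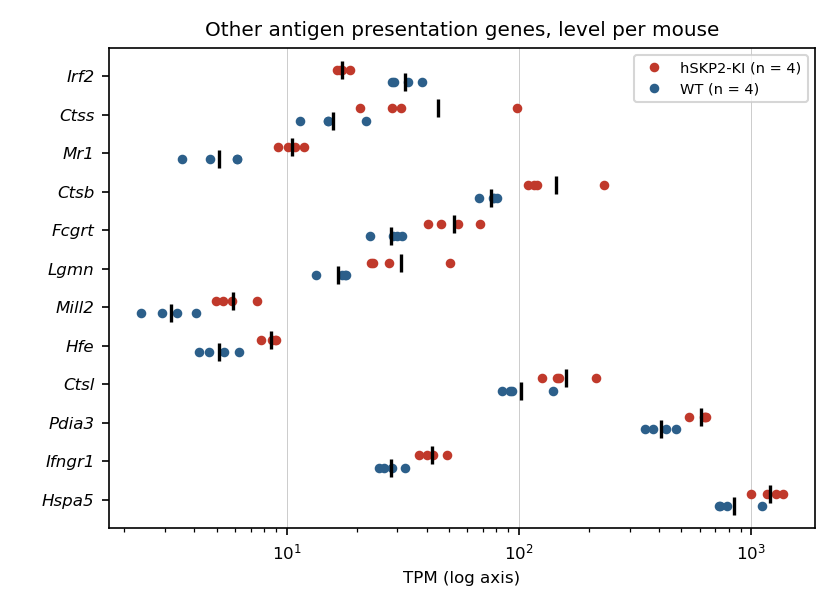
Level in each mouse, in TPM on a log axis, of the 12 called pathway genes whose fold changes were farthest from the median of all genes; red points are the 4 hSKP2-KI mice, blue points the 4 WT mice, and black ticks the group means. Irf2 was the only gene with its red points, at 16.4 to 18.7 TPM, below the blue ones, and Ctss, Ctsb, Lgmn and Ctsl each had 1 red point, hSKP2-KI mouse 2, apart from the rest.

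The class I heavy chain sum and the marker sums of several other cell types were both higher in hSKP2-KI mice in TPM as deposited. The 26 heavy chain genes summed to 1690, 1715, 1309 and 1407 TPM in hSKP2-KI mice and 1063, 1128, 1098 and 1072 TPM in WT mice, a ratio of means of 1.4, or 1.15 after median-ratio scaling, where the groups overlapped. Without H2-K1 and H2-D1 the sum was 130 to 169 TPM in hSKP2-KI and 91.4 to 110 TPM in WT mice, a ratio of 1.53, or 1.25 after scaling with no overlap. Fibroblast markers summed to 596 to 951 and 327 to 458 TPM (ratio 1.88), endothelial markers to 22.8 to 40.9 and 12.7 to 17.8 TPM (ratio 1.95), smooth muscle markers to 2388 to 3693 and 1656 to 2066 TPM (ratio 1.67), and epithelial markers to 2035 to 2594 and 1783 to 1952 TPM (ratio 1.24). Every hSKP2-KI mouse was above every WT mouse in these 4 sums, as in macrophage and dendritic cell markers. This did not hold for B cell, T cell and natural killer cell markers. Taken singly, 3 of 4 fibroblast, 2 of 3 endothelial, 4 of 4 smooth muscle and 1 of 5 epithelial markers were higher without overlap. The share of all genes tested was 34%. Within hSKP2-KI mice, smooth muscle markers kept the order of the heavy chain sum. Mouse 1, at 1690 TPM of heavy chains, was lowest for fibroblast and endothelial markers and highest for epithelial markers. After median-ratio scaling the fibroblast and endothelial sums still did not overlap (ratios 1.55 and 1.6), while the smooth muscle (1.37), epithelial (1.02), macrophage (1.6) and dendritic cell sums (1.37) did. Taken singly, 3 fibroblast, 1 endothelial, 1 smooth muscle and 0 epithelial markers were then higher without overlap, beside 9.68% of all genes. Class I is expressed by all of these cells, and their part in the class I values was not tested.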

How the data were processed

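Poly-A RNA was sequenced in paired 150-base reads by the authors, who mapped it with CLC software (Qiagen). The submitters' notes name mm10 and GRCm38. Version, annotation and counting rule are not given in the sources used here. The deposited table holds TPM made by the authors for 36333 genes in 8 mice. The paper names a nominal number of reads, but the reads counted in each library are not known, so no counting interval is given. Replicates are labelled as biological. Columns of no sample numbered 0.

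Genes with at least 1 TPM in at least 4 mice (13080) were tested on log2(TPM + 1), which understates changes of low genes, with limma 3.58.1 (trended empirical Bayes, R 4.3.3) and Benjamini-Hochberg adjustment over all genes, threshold 0.05. Median-ratio size factors came from genes above 0 in every mouse. Ratios within a mouse were tested with two-sided exact permutation tests over 4 against 4 mice (smallest p 0.0286; scipy 1.17.1). The fit was tested on simulated data. Alternatives were pseudocount, filter, scaling, replicate block, sample weights, robust moderation and leaving out each mouse, and with median-ratio scaling the block and left-out mice, chosen after seeing the data. Promoter windows were aligned globally (match 1, mismatch -1, gap -2). Of the motifs searched, 1 is not reported here.

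Members, gene lists and tests were chosen with earlier results of these data known. Every tested member is named. Values in each mouse are given for the 10 genes listed by name, the 6 class I and 6 class II H2 genes with the highest means, and tested members with no overlap. Of called pathway genes, the 12 farthest from the median are given in full. Other members appear as ranges. Cd274, Irf1, Rfx5, Nfya, H2-M9, H2-Ea-ps and other pathway genes outside that rule were named after their values were seen.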

Additional observations from a re-analysis of the deposited data

Results flagged for a closer look

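In 5 of 58 groups of 4 mice, 1 mouse lay apart from the other 3 by Dixon's test, and chance alone flags about 1 in 20 groups. In hSKP2-KI mice, mouse 2 was the highest for H2-Ab1, at 115 TPM against 77.8 to 83.9 TPM, and for H2-DMa, at 2.66 TPM against 1.93 to 2.01 TPM. This mouse also had the highest macrophage marker sum, 423 TPM against 209 to 227 TPM, whose part was not tested. In WT mice, mouse 4 was the highest for H2-Q2, at 21.6 TPM against 19.7 to 20 TPM, and the lowest for H2-T23, at 5.5 TPM against 7.05 to 7.32 TPM. WT mouse 3 was the highest for Psmb9, at 13.3 TPM against 12.4 to 12.6 TPM.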

How the results depend on the processing

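The scaling between mice changed the class I, pathway and whole-table counts by more than leaving out any mouse did, and left class II calls at 1. Genes called over the whole table fell from 4433 (4272 higher, 161 lower) to 1492 with median-ratio scaling (869 higher, 623 lower), 1326 with quantile normalization (721 and 605) and 1321 without the 20 most abundant genes (887 and 434). In the same order class I calls were 4, 6 and 6 in place of 14, and pathway calls 6, 7 and 7 in place of 29. Class I calls were 12 with no filter on low values and 12 with a mean of at least 5 TPM, and pathway calls 18 with no filter. Leaving out each mouse gave 2993 to 4677 genes over the table, 13 to 15 class I, 1 to 5 class II (5 without WT mouse 3, 2 without WT mouse 2) and 18 to 26 pathway calls (18 without WT mouse 1). With median-ratio scaling as well, it gave 2 to 4 class I, 0 to 1 class II and 2 to 5 pathway calls.

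Mice with the same number did not deviate together (correlations 0.22, -0.11, 0.17 and -0.01), so the numbers were not taken as pairs. With the replicate block class II calls were 2, adding H2-DMb2 (adjusted p = 0.0274); H2-Ke6 also passed and no other call among the members and the 12 pathway genes given in full changed. With median-ratio scaling and the block class II calls were 0 (H2-DMb1 adjusted p = 0.0534), beside 4 class I calls, with H2-K1 (0.0409) in place of Psmb8 (0.0577), and 5 pathway calls, without Mill2 (0.0615). Mill2 also missed with quantile normalization (0.0582) and without the 20 most abundant genes (0.052).

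Uncalled changes turned sign. With median-ratio scaling they were -0.08 for H2-Ke6, -0.15 for H2-DMa, -0.04 for H2-Q1, -0.11 for H2-Q2, -0.02 for H2-Bl and -0.03 for Tap1; with quantile normalization -0.03, -0.27, -0.15, -0.08, -0.13 and -0.03, and -0.04 for H2-Q7; and without the 20 most abundant genes -0.04 for H2-Ke6, -0.14 for H2-DMa, -0.03 for H2-Q1 and -0.08 for H2-Q2. With each mouse left out, H2-DMa ranged from -0.03 (without hSKP2-KI mouse 2) to 0.12 and H2-Bl from -0.04 (without hSKP2-KI mouse 1) to 0.31. The cause was not tested beyond the settings' own construction. The reads counted in each library are not known, so for genes near 1 TPM the counting error is not given.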
